A study of Mus musculus with 37 samples.

Results

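The noncancerous ureter and the bladder of the same carcinogen-treated mice were compared in 12 of the 37 RNA-seq libraries of the series. The members were the 6 mice that contributed both tissues, numbered 1, 2, 3, 4, 7 and 9, so that each mouse gave 1 ureter and 1 bladder library. All were BALB/c female mice of wild-type genotype given 0.05% N-butyl-N-(4-hydroxybutyl) nitrosamine (BBN) in drinking water from 6 to 7 weeks of age, and the series design states 18 weeks of treatment. The ureter came from the side of the upper tract without cancer (group UN, left in mice 1, 2 and 9 and right in mice 3, 4 and 7), while the ureter of the other side carried an upper tract urothelial carcinoma (UTUC), so no mouse was free of tumor. The bladders carried the same treatment, and the library names, not the labels, mark all 6 with an N. For the test of whether a tissue difference belonged to the BBN-treated animals, 9 further libraries from 3 untreated BALB/c female mice were used, both ureters (group U, 6 libraries) and the bladder (3 libraries) of each.

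Ureter and bladder share a stretchable lining, the urothelium, whose superficial umbrella cells carry plaques of uroplakins and whose basal cells express Krt5, Krt14 and Trp63, and both are wrapped in smooth muscle. They differ in embryonic origin: the mesenchyme of the ureter expresses Tbx18, a T-box factor needed for ureteral smooth muscle, whereas the bladder forms from the urogenital sinus and the mesenchyme around it. BBN is metabolized to a carcinogenic compound that is excreted in urine and reaches both linings. In bulk RNA, fewer cells of a type and less RNA per cell cannot be told apart.

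The bladder libraries of mice 1, 3 and 4 had an RNA integrity number (RIN) under 5, and results are therefore given for the 6 mice and for mice 2, 7 and 9 alone. Library totals ranged from 10941541 to 14973904 estimated counts in the ureters, from 11150685 to 15104379 in the bladders of mice 2, 7 and 9, and from 3557697 to 7820510 in the 3 bladders with a RIN under 5. The tissue difference in totals did not pass when the signs of the 6 within-mouse differences were permuted in an exact two-sided test (mean of ureter minus bladder 3083043, p = 0.25, smallest p possible 0.0312, higher in the ureter of 3 mice). In the 3 bladders with a RIN under 5, the 10 highest genes took 21.5% to 29.5% of the counts, against 5.17% to 6.84% in the other bladders and 6.15% to 16% in the ureters. Levels are given as counts scaled to library size (CPM) after TMM scaling, and log2 fold changes as ureter minus bladder with their standard error (SE), so that a positive value is higher in the ureter. Where a log2 fold change or a false discovery rate has a slash, the value before it is that of the 6 mice and the value after it that of mice 2, 7 and 9.

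The library labelled as the ureter of mouse 2 held almost none of the urothelial markers. Its Upk2 level was 0.338 CPM against 26 to 95 CPM in the other 5 ureters, and Krt5 was 3.61 CPM against 112 to 2218 CPM. The summed level of 6 uroplakin genes was 11.05 CPM in that library and 559.6 to 1911 CPM in the other ureters. The white fat markers summed to 93920 CPM in the ureter of mouse 2, the highest of the 12 libraries, and to 11020 to 73250 CPM in the other ureters. Values without mouse 2 are therefore given beside some of the epithelial results. In the ureter of mouse 7 the basal urothelial genes summed to 6599 CPM and in that of mouse 3 to 12440 CPM, both above the 615.8 to 2250 CPM of mice 1, 4 and 9, so the level of epithelial genes differed widely among the ureters.

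**Figure D1:**
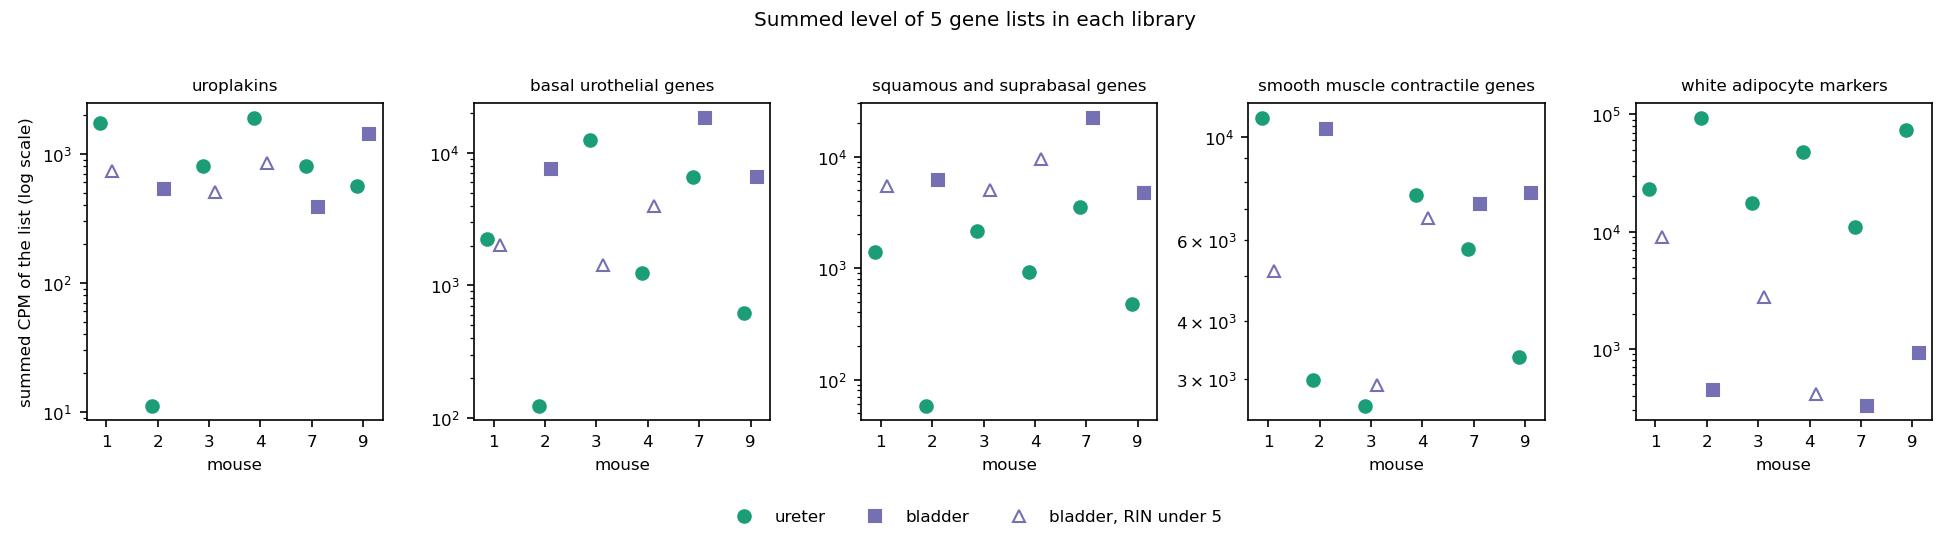
Summed CPM (log scale) of 5 gene lists in each library by mouse, with ureters as circles, bladders as squares and bladders with a RIN under 5 as open triangles. The ureter of mouse 2 stood at 11.05 CPM for the uroplakins, while all 6 ureters lay above all 6 bladders for the white adipocyte markers.

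Between the tissues, 841 of 15038 genes tested (5.59%) were higher in the ureter and 601 (4.00%) were higher in the bladder, in edgeR's quasi-likelihood test with mouse as a block, so that 9.59% were called in either direction. A call required a Benjamini-Hochberg false discovery rate (FDR) below 0.1 together with a minimum change of 2-fold. In mice 2, 7 and 9 alone, 921 of 15209 genes (6.06%) were higher in the ureter and 657 (4.32%) in the bladder. Of the genes called in the 6 mice, 500 of those higher in the ureter (59.5%) and 267 of those higher in the bladder (44.4%) were called the same way in mice 2, 7 and 9, which was 3.36% and 1.79% of the genes tested in both. Leaving out mouse 4 lowered the counts to 212 and 162, leaving out mouse 9 to 320 and 357, and leaving out mouse 1 to 516 and 322. Without the block on mouse the counts were 1101 and 1584 in 6 mice and 399 and 39 in mice 2, 7 and 9.

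Genes of white adipocytes set the ureter apart. Of 20 white adipocyte markers tested, 18 were higher in the ureter and 0 in the bladder in 6 mice, where 5.59% and 4.00% of all genes were. All 20 were higher in the ureter in mice 2, 7 and 9, where 6.06% of all genes were. Their median log2 fold change was 4.49 in 6 mice and 6.32 in mice 2, 7 and 9, where the medians over all genes were 0.03 and -0.04. In 13 of the 20 every ureter lay above every bladder, as in 3.31% of all genes. The 12 largest fold changes toward the ureter that met the naming rule were Mc5r, Slc36a2, Cidec, Cfd, Gpd1, Elovl3, Mrap, Adipoq, Plin1, Car3, Thrsp and Slc7a10, most of them known for expression in fat. Without mouse 4 the count fell from 18 to 6 and without mouse 9 to 10, and the count of mice 2, 7 and 9 fell from 20 to 13 without mouse 2. Of the 12 named genes, Cidec lost its call without mouse 4, Mrap, Adipoq and Car3 without mouse 4 or 9, and Slc36a2, Cfd and Thrsp without mouse 4, 7 or 9.

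Cidec, which promotes the fusion of lipid droplets, was at 693 to 6124 CPM with a median of 2820 in the ureters and at 6.05 to 304 CPM with a median of 23.3 in the bladders. The groups did not overlap, and all 6 mice had more in the ureter (log2 fold change 6.22 ± 1.35, FDR 0.0306, and 7.47 ± 0.90, FDR 0.00624, in mice 2, 7 and 9). Adipoq, the gene of the fat hormone adiponectin, ranged over 384 to 3924 CPM with a median of 1220 in the ureters and 4.79 to 254 CPM with a median of 16.9 in the bladders, again without overlap (5.89 ± 1.38/7.29 ± 0.90, FDR 0.0379/0.0067). The bladders of mice 1 and 3 held 304 and 249 CPM of Cidec and the other 4 bladders 6.05 to 32.8 CPM, so the fat signal of the bladders was highest in 2 of the 3 bladders with a RIN under 5. Lep, which encodes leptin, did not pass in the 6 mice (3.92 ± 2.31, FDR 0.338) and passed in mice 2, 7 and 9 (7.50 ± 0.64, FDR 0.00231).

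The brown fat list moved with it in fewer members, with 3 of 12 higher in the ureter in 6 mice and 9 of 12 in mice 2, 7 and 9. Over all genes these shares were 5.59% and 6.06%. Cidea and Elovl3 passed in both, while Ucp1, the uncoupling protein of heat-producing fat, lay at 0.772 to 31.8 CPM in the ureters and 0 to 8.67 CPM in the bladders and passed in mice 2, 7 and 9 alone (FDR 0.00962 against 0.348). The 3 brown fat calls fell to 1 without mouse 4. Pparg, a regulator of both fat and urothelial differentiation, was higher in all 6 ureters (82.8 to 306 CPM with a median of 166 against 7.49 to 54.1 CPM with a median of 32.4, 2.32 ± 0.38/2.25 ± 0.46, FDR 0.0137/0.036). Mc5r, a melanocortin receptor, had the largest fold change of the 12 named genes and was at 0 in the bladders of mice 1, 4 and 7 (7.39 to 47.1 CPM with a median of 10.3 in the ureters, highest bladder 1.18 CPM in mouse 3, FDR 0.00971/0.00364).

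Detoxification genes were mostly called toward the ureter. Of 55 genes of carcinogen and drug metabolism tested, 13 were higher in the ureter and 3 in the bladder, where 5.59% and 4.00% of all genes were, and 10 and 3 of these were called in both sets of mice. Cyp2e1, a cytochrome P450 that oxidizes ethanol and nitrosamines, ranged over 1070 to 9628 CPM with a median of 5878 in the ureters and 13.4 to 1350 CPM with a median of 77.8 in the bladders, where the bladders of mice 1 and 3 were the highest (5.47 ± 1.32, FDR 0.0413, and 6.75 ± 0.94, FDR 0.0103, in mice 2, 7 and 9). Cyp4b1, another P450, did not overlap between the tissues (47.4 to 183 CPM with a median of 116 against 2.76 to 25.4 CPM with a median of 11.4, 3.24 ± 0.40/2.57 ± 0.38, FDR 0.00908/0.0125). The sulfotransferase Sult1a1 (3.59 ± 0.64/4.68 ± 0.55), the epoxide hydrolase Ephx2 (4.41 ± 0.72/5.25 ± 0.66) and the mitochondrial aldehyde dehydrogenase Aldh2 (2.71 ± 0.48/2.53 ± 0.59) were also higher in all 6 ureters and without overlap. Toward the bladder, Gsto1 (-2.80/-3.37), Gsta1 (-3.47/-3.58) and Cyp3a13 (-3.28/-4.54) were called in both sets, although Gsto1 lost its call in the 6 mice when mouse 1, 2, 4, 7 or 9 was left out (FDR up to 0.245). Adh1, an alcohol dehydrogenase, was higher in all 6 ureters without passing (1.10 ± 0.41/1.46 ± 0.44, FDR 0.147/0.104). Several of the enzymes higher in the ureter are also known in fat, and the white fat markers lay higher in all 6 ureters beside them; their part in these differences was not tested. The 13 calls fell to 6 without mouse 4, with that of Cyp2e1 lost without mouse 4, 7 or 9, and those of mice 2, 7 and 9 fell to 6 without mouse 2 and to 8 without mouse 9.

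**Figure D2:**
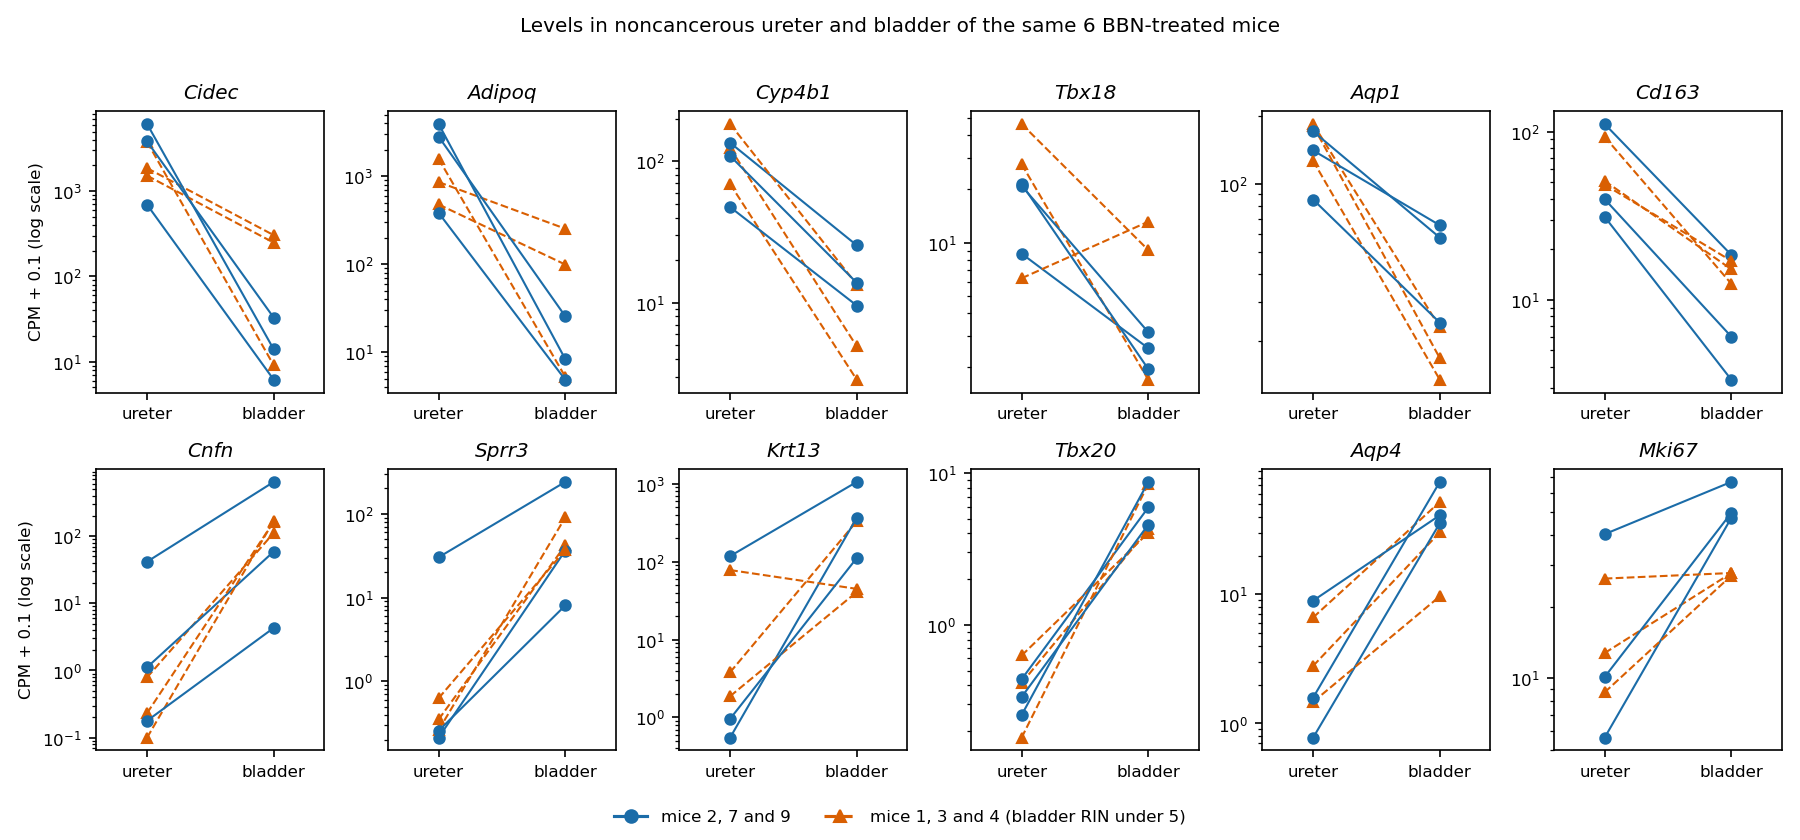
Level of 12 genes (CPM + 0.1, log scale) in the ureter and bladder of each mouse, joined by a line, with mice 2, 7 and 9 as circles and solid lines and mice 1, 3 and 4, whose bladders had a RIN under 5, as triangles and dashed lines. Cidec fell from a median of 2820 CPM in the ureters to 23.3 CPM in the bladders, while Cnfn and Sprr3 were higher in the bladder of each of the 6 mice.

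Genes of keratinizing epithelium marked the bladder. The 12 named genes higher in the bladder were Cnfn, Crnn, Calm4, Crct1, Sprr3, Csta1, Slurp1, Defb14, Asz1, Sprr2j-ps, Krtdap and Sprr1b, and among these Cnfn, Crnn, Crct1, Krtdap and the Sprr genes are known from cornified or stratified epithelia. Of 27 squamous and suprabasal genes tested, 19 were higher in the bladder and 0 in the ureter, where 4.00% and 5.59% of all genes were. In mice 2, 7 and 9 the counts were 20 and 0, where 4.32% and 6.06% of all genes were, and 16 were called in both sets. The median log2 fold change was -3.33 in 6 mice and -3.30 in mice 2, 7 and 9. Without mouse 2, whose ureter had the lowest summed uroplakins, 20 were higher in the bladder and the median was -3.24, whereas the count fell to 11 without mouse 4. Within mice 2, 7 and 9 the count fell to 7 without mouse 2 and to 0 without the block on mouse.

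Cnfn, which encodes the cornified envelope protein cornifelin, lay at 0 to 41.5 CPM in the ureters, of which 5 were at or under 1.01 CPM, and at 4.21 to 642 CPM with a median of 138 in the bladders (-7.39 ± 1.15, FDR 0.0113, and -4.93 ± 0.59, FDR 0.00582, in mice 2, 7 and 9). The ureter of mouse 7 was the exception at 41.5 CPM, and the bladder of the same mouse was the highest at 642 CPM. Sprr3, a precursor of the cornified envelope, repeated this order, with 30.1 CPM in the ureter of mouse 7, at most 0.528 CPM in the other 5 ureters and 7.94 to 239.7 CPM with a median of 39.2 in the bladders (-6.61 ± 0.84/-4.86 ± 0.86, FDR 0.00908/0.0251). Krtdap, expressed in differentiating keratinocytes, was 28.2 CPM in the ureter of mouse 7, at most 1.72 CPM in the others and 2.82 to 429.7 CPM with a median of 106 in the bladders (-5.80 ± 1.41/-3.14 ± 0.82, FDR 0.0424/0.0732), a call that was lost without mouse 1 (FDR 0.102) and with a RIN coefficient (FDR 0.142). Each of these genes was higher in the bladder of all 6 mice, but the level in the ureter of mouse 7 exceeded the lowest bladder, that of mouse 9. None of the 27 list genes had libraries without overlap toward the bladder, where 0.971% of all genes did. Markers of the female reproductive tract summed to 6807 and 7607 CPM in the bladders of mice 3 and 4, against 342.3 to 977.9 CPM in the other bladders and 68.88 to 447.8 CPM in the ureters, and their part in the squamous result was not tested. The count without mice 1, 3 and 4 is the 20 given above.

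Keratins of the suprabasal layers were less uniform. Krt6a, induced in stressed and hyperproliferating epithelium, was higher in the bladder of 5 mice (71.8 to 3477 CPM with a median of 265 against 1.47 to 445 CPM with a median of 10.4, -4.40 ± 1.33/-6.08 ± 1.35, FDR 0.0863/0.0463), and mouse 3 was the exception, with 384 CPM in the ureter and 71.8 CPM in the bladder. Krt13 ran likewise (-5.38 ± 1.29/-6.47 ± 1.32, FDR 0.0404/0.0362), and Krt1, a keratin of cornifying cells, was higher in the bladder of all 6 mice (-4.43 ± 0.60/-5.67 ± 0.74, FDR 0.00925/0.00794). Without mouse 2 the log2 fold changes were -3.62 for Krt6a (FDR 0.0956), -4.56 for Krt13 (FDR 0.0499) and -7.93 for Cnfn (FDR 0.0151). The call of Krt6a was lost without mouse 1, 4, 7 or 9 (FDR up to 0.249), without the block and with limma-voom, that of Krt13 without mouse 1, 4 or 9 (FDR up to 0.129). Krt1 lost its call with limma-voom. Krt16 passed in mice 2, 7 and 9 alone (-4.59 ± 0.86, FDR 0.0286, against -2.62 ± 1.18, FDR 0.217).

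Of the 12 named bladder genes, 5 (Crct1, Crnn, Sprr1b, Sprr2j-ps and Sprr3) lie within 732 kb of chromosome 3 in the epidermal differentiation complex (GRCm38, chr3:92418082-93149819). The stretch is bounded by genes chosen for being higher in the bladder, so 5 of its 7 tested genes were called by that choice. Of the other 2, both named after their values were seen, Sprr1a was higher in the bladder, as were 4.00% of all genes, and Ivl did not pass. Sprr2j-ps belongs to a family of near-identical copies, so its count is uncertain. The promoters of these genes were searched for TGANTCA, whose reverse complement is the same string, from 250 bases before to 50 after the start site. AP-1 factors such as Fos and Jun bind letters of this form. Any base was allowed as N, so the counts are not counts of a stricter AP-1 string. RefSeq windows (GRCm38.p6) were at hand for 17 of the 27 squamous genes tested, and 11 of them (64.7%) held the string, against 639 of 11225 genes tested (5.69%). Of the 12 named bladder genes, 8 had a window and 3 held the string, and of the 12 named ureter genes 0 of 6 held it. These 3 promoters are shown with the string in capitals, in the direction of the gene, followed by that of Cnfn, the first of the 12 by fold change, which holds none.
Crnn (chr3:93144539-93144838, plus strand): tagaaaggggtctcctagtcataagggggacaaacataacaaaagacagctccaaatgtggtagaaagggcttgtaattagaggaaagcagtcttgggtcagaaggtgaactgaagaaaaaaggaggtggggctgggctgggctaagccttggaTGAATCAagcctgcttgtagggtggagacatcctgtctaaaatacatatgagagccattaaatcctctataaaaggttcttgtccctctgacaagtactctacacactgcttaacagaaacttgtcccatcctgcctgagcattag
Krtdap (chr7:30787655-30787954, plus strand): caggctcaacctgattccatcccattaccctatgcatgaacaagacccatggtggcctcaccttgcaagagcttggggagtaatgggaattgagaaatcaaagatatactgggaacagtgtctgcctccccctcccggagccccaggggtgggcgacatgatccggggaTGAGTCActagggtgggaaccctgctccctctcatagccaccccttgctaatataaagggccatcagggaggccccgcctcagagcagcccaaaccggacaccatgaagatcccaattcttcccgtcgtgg
Sprr1b (chr3:92438730-92439029, minus strand): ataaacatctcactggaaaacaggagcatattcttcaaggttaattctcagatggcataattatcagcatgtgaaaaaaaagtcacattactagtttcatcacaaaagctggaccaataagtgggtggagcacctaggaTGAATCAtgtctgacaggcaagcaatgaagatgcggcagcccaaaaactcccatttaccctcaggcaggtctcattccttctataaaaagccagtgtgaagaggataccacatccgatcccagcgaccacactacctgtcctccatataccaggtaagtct
Cnfn (chr7:25369675-25369974, minus strand): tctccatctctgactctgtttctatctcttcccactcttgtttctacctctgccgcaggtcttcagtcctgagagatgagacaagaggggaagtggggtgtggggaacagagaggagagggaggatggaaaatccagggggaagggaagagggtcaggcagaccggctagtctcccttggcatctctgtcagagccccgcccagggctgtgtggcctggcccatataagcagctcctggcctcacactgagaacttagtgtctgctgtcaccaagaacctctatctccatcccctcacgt
The string began 96 bases before the start in Crnn, 81 before in Krtdap and 111 before in Sprr1b, and a match of letters does not show that a factor was bound.

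Few umbrella and basal cell genes were called in the 6 mice. Of 6 uroplakin genes, 1 was called, Upk3bl, which was higher in the bladder of 5 mice (-3.76 ± 1.03/-4.62 ± 0.92, FDR 0.0633/0.0344). Its call was lost without mouse 1, 4 or 9, without the block and with 7 ureters against 6 bladders with a RIN of 5 or more (FDR up to 0.199). Upk2 ranged over 0.338 to 95 CPM with a median of 47.2 in the ureters and 10.7 to 68.8 CPM with a median of 20.8 in the bladders and was higher in the ureter of 4 mice (0.38 ± 0.84/-0.99 ± 1.36, FDR 0.817/0.722). Upk3a was also higher in the ureter of 4 mice (0.55 ± 0.86/-0.82 ± 1.14, FDR 0.729/0.724). Upk1a (-0.84 ± 0.93/-1.63 ± 1.12), Upk1b (-0.43 ± 0.90/-1.90 ± 1.48) and Krt20 (-0.20 ± 1.03/-1.98 ± 1.24), a keratin of umbrella cells, did not pass either. Without mouse 2 the log2 fold changes were 1.02 for Upk2, 1.19 for Upk3a, -0.16 for Upk1a, 0.22 for Upk1b and 0.52 for Krt20, none of which passed, and the median over the uroplakins moved from -0.03 to 0.62. Of 16 basal urothelial genes, 0 were called in 6 mice (2 at an unadjusted p under 0.05 in edgeR and 4 called by DESeq2, all higher in the bladder) and 8 were higher in the bladder in mice 2, 7 and 9, a count that fell to 1 without mouse 2, 0 without mouse 9 and 0 without the block, and rose to 13 without mouse 7. Krt14 was -4.68 ± 1.27 (FDR 0.0782) and Trp63 -2.78 ± 0.77 (FDR 0.084) in mice 2, 7 and 9, while Krt5 did not pass in either set (FDR 0.515 and 0.197). Among 20 luminal keratins and factors, Pparg alone was called in 6 mice. In mice 2, 7 and 9, Pparg was higher in the ureter and 3 (Klf5, Erbb3 and Grhl2, named after their values were seen) in the bladder, where 6.06% and 4.32% of all genes were. The medians in mice 2, 7 and 9 were -1.31 over the uroplakins, -2.37 over the luminal genes and -2.71 over the basal genes. Without mouse 2 the median moved from -0.39 to 0.24 over the luminal genes and from -0.70 to -0.27 over the basal genes.

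**Figure D3:**
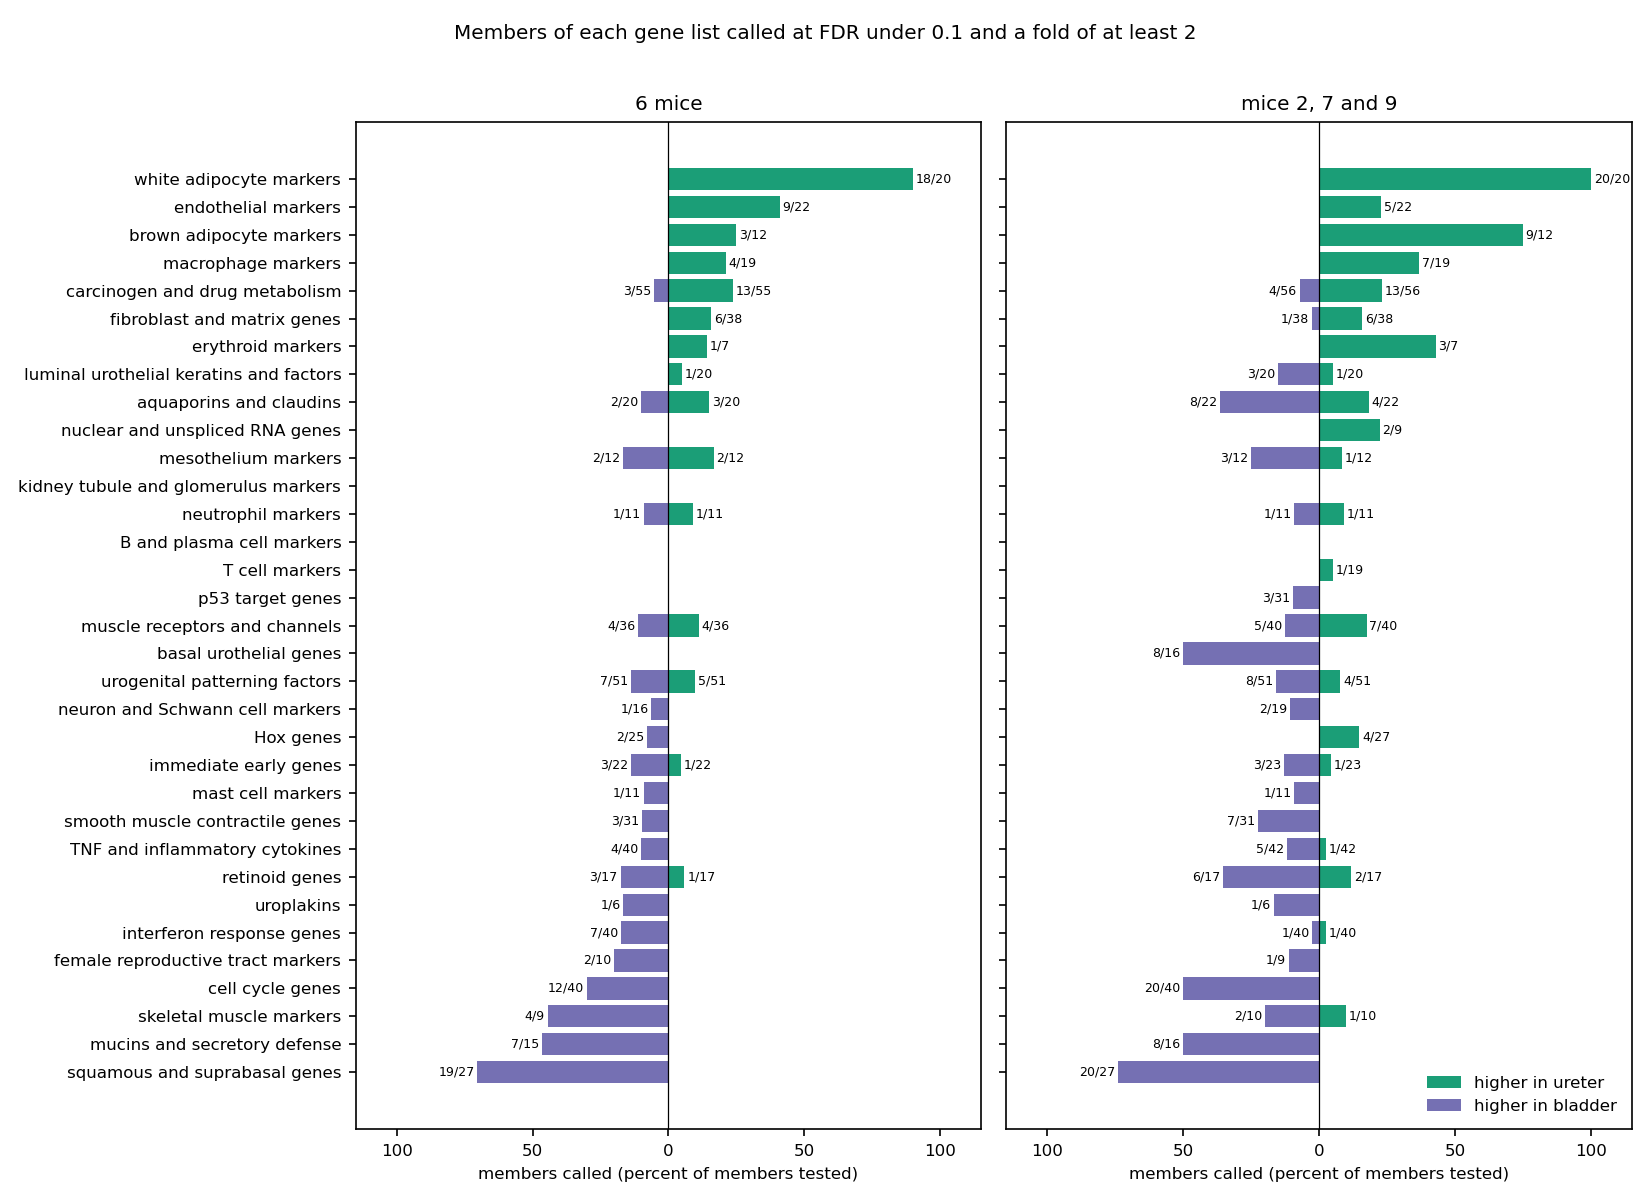
Share of the tested members of each gene list called higher in the ureter (right) or higher in the bladder (left), in 6 mice and in mice 2, 7 and 9, with the number called over the number tested beside each bar. White adipocyte markers (18 of 20 higher in the ureter) and squamous and suprabasal genes (19 of 27 higher in the bladder) stood at the ends of the order in 6 mice.

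Mucosal defense genes followed the keratinizing genes toward the bladder. Of 15 mucin and secretory defense genes tested, 7 were higher in the bladder, where 4.00% of all genes were, and 0 in the ureter, with 6 called in both sets of mice. Clca1, a secreted protein of mucous cells, was higher in the bladder of all 6 mice (8.17 to 253 CPM with a median of 48.4 against 0.338 to 18.4 CPM with a median of 2.36, -4.32 ± 0.61/-5.17 ± 0.83, FDR 0.00971/0.0185). Ltf, the iron-binding lactoferrin, reached 1901 CPM in the bladder of mouse 7 and was higher in the bladder of 5 mice (-4.07 ± 1.07/-5.20 ± 0.68, FDR 0.0552/0.00766). The antimicrobial peptide gene Defb1 (-4.59 ± 0.80/-3.95 ± 0.80), the protease inhibitor gene Spink5 (-3.92 ± 0.81/-4.05 ± 0.67), the collectin gene Sftpd (-3.56 ± 1.0/-4.84 ± 1.0) and Muc15 (-3.18 ± 0.58/-3.99 ± 0.67) passed in both sets and were higher in the bladder of all 6 mice. Muc1 and Pigr did not pass in 6 mice (FDR 0.264/0.0107 and 0.513/0.261). Ltf and Sftpd lost their calls without mouse 4, 7 or 9. Without mouse 4 or without mouse 9, 4 genes were called in place of 7, and 4 in place of 8 in mice 2, 7 and 9 without mouse 2.

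Of 20 aquaporin and claudin genes tested, 3 were higher in the ureter and 2 in the bladder in 6 mice, where 5.59% and 4.00% of all genes were, and in mice 2, 7 and 9 the counts were 4 and 8 of 22, where 6.06% and 4.32% of all genes were. Aqp1, the channel of vessel linings and other water-permeable cells, was higher in all 6 ureters without overlap (85.1 to 184 CPM with a median of 156 against 13.4 to 65.4 CPM with a median of 23.6, 2.17 ± 0.38/1.49 ± 0.37, FDR 0.0179/0.0661), and Aqp11 likewise (2.57 ± 0.55/3.41 ± 0.71, FDR 0.0299/0.0383). Aqp4 ran the other way, with 9.57 to 74.5 CPM with a median of 38.3 in the bladders and 0.676 to 8.85 CPM with a median of 2.09 in the ureters and no overlap (-3.92 ± 0.52, FDR 0.00925, and -4.44 ± 0.80, FDR 0.0259, in mice 2, 7 and 9). Aqp3 and Cldn4, both abundant in urothelium, did not pass (FDR 0.924/0.194 and 0.682/0.17). Among the claudins of tight junctions, the epithelial Cldn3 was higher in the bladder of 5 mice (-3.01 ± 0.74/-4.25 ± 0.82, FDR 0.0445/0.0308, a call lost without mouse 4 or 9) and the endothelial Cldn5 was higher in all 6 ureters (2.09 ± 0.31/2.04 ± 0.40, FDR 0.01/0.0324).

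Patterning genes were called in both directions. Of 51 urogenital patterning factors tested, 7 were higher in the bladder and 5 in the ureter, where 4.00% and 5.59% of all genes were. Of these, 5 and 3 were called in both sets, as were 1.79% and 3.36% of all genes. Tbx20, a T-box factor of organ development, was at 3.94 to 8.65 CPM with a median of 5.16 in the bladders and at 0.0806 to 0.528 CPM with a median of 0.274 in the ureters, without overlap (-4.59 ± 0.65/-4.71 ± 0.70, FDR 0.00971/0.0132). Hand2, a basic helix-loop-helix factor, was at 0 in all ureters except that of mouse 2 (0.113 CPM) and at 0.923 to 5.78 CPM with a median of 3.75 in the bladders (FDR 0.00908/0.029). Isl1 (-3.04 ± 0.56/-2.93 ± 0.68) and Eya1 (-3.17 ± 0.59/-2.68 ± 0.71), both regulators of organ development, were higher in the bladder without overlap, and Pitx1 was higher in the bladder of all 6 mice (-4.50 ± 0.86/-5.16 ± 0.92). Tbx18, the factor of ureteral mesenchyme, was higher in 5 of 6 ureters (6.2 to 46.3 CPM with a median of 21 against 1.59 to 13 CPM with a median of 2.74, 2.2 ± 0.66/2.70 ± 0.52, FDR 0.0845/0.0301), and in mouse 3 the bladder was higher (13 against 6.2 CPM). Prrx1 (1.63 ± 0.45/2.21 ± 0.39, FDR 0.0665/0.0242) and Foxc2 (2.23 ± 0.63/2.71 ± 0.65, FDR 0.0684/0.0596) were also higher in the ureter. The 5 calls toward the ureter were lost when mouse 1, 4, 7 or 9 was left out and fell to 2 without mouse 2, whereas 5 to 9 genes were called toward the bladder. With libraries thinned to the smallest total, 1 was called toward the ureter and 3 toward the bladder, and Tbx18 and Prrx1 lost their calls. Of 25 Hox genes tested, 2 were higher in the bladder and 0 in the ureter in 6 mice, whereas in mice 2, 7 and 9, 4 of 27 were higher in the ureter (Hoxc6, Hoxc8, Hoxc9 and Hoxc10, named after their values were seen) and 0 in the bladder. With thinned libraries 0 Hox genes were called. The 2 genes called in 6 mice, Hoxd13 (-5.50/-4.70, FDR 0.0341) and Hoxd11 (-3.62/-2.59, FDR 0.0207), did not pass in mice 2, 7 and 9 (FDR 0.101 and 0.127).

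Most contractile genes of smooth muscle did not pass, with 3 of 31 higher in the bladder, where 4.00% of all genes were, a count that fell to 0 without mouse 4 and to 1 without mouse 9. In mice 2, 7 and 9, 7 of 31 were higher in the bladder. Actg2, the enteric smooth muscle actin, was higher in the bladder of all 6 mice (239 to 723 CPM with a median of 509.6 against 62.4 to 301 CPM with a median of 166, -1.96 ± 0.49/-2.32 ± 0.60, FDR 0.0476/0.0725), as was the potassium channel subunit gene Kcnmb1 (-1.44 ± 0.38/-1.82 ± 0.47, FDR 0.0536/0.0719). Myh11, the smooth muscle myosin heavy chain, varied from 29.2 to 1597 CPM among the ureters and 161 to 901 CPM among the bladders (-0.56 ± 1.0/-1.53 ± 1.03, FDR 0.766/0.44). Of 36 muscle receptors and channels, 4 were higher in each tissue in 6 mice, where 5.59% of all genes were higher in the ureter and 4.00% in the bladder. Without mouse 4, 1 was higher in the ureter and 2 in the bladder. In mice 2, 7 and 9, 7 of 40 were higher in the ureter and 5 in the bladder. P2rx1, the ATP-gated channel of bladder contraction, was higher in the bladder of all 6 mice (11.8 to 110.0 CPM with a median of 43.7 against 2.9 to 19.8 CPM with a median of 11.3, -2.29 ± 0.39/-2.91 ± 0.42, FDR 0.0163/0.0121). The angiotensin receptor gene Agtr1a (3.25 ± 0.69/3.18 ± 0.53) and the prostaglandin receptor gene Ptger3 (3.56 ± 0.72/4.73 ± 0.60) were higher in all 6 ureters without overlap, and the endothelin receptor gene Ednrb was higher in all 6 ureters (1.56 ± 0.39/1.82 ± 0.38). Adrb3, a receptor known in both bladder muscle and fat, was higher in all 6 ureters (4.16 ± 1.30/6.91 ± 0.85, FDR 0.095/0.00653), at 278 and 489 CPM in those of mice 2 and 9, where the white fat markers were also highest. Leaving out 1 mouse ended the calls of Agtr1a (mouse 4), Actg2 (mouse 4 or 9), Ednrb (mouse 1, 4 or 9), Kcnmb1 (mouse 2, 4 or 9) and Adrb3 (mouse 2, 4, 7 or 9).

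Every cell cycle, cytokine and interferon gene called in the 6 mice was higher in the bladder. Of 40 cell cycle genes, 12 were higher in the bladder, where 4.00% of all genes were, and 0 in the ureter, and 20 were in mice 2, 7 and 9, with 7 called in both. Mki67, a marker of cycling cells, was higher in the bladder of all 6 mice (26.9 to 66.8 CPM with a median of 37.4 against 5.52 to 40.2 CPM with a median of 11.3, -1.68 ± 0.39/-2.04 ± 0.52, FDR 0.0379/0.069), and the mitotic genes Hmmr (-2.49 ± 0.50/-2.60 ± 0.76, FDR 0.0242/0.0941), Birc5 (-2.39 ± 0.60/-1.90 ± 0.57, FDR 0.0479/0.0999) and Kif11 (-1.98 ± 0.49/-2.51 ± 0.67, FDR 0.0458/0.0761) followed. Mki67 and Kif11 lost their calls without mouse 4 or 9 and Birc5 without mouse 1, 4 or 9. The 12 calls fell to 5 without mouse 1, 1 without mouse 4 and 2 without mouse 9, and the 20 calls fell to 0 without mouse 2 or mouse 9 and rose to 35 without mouse 7. The basal urothelial genes also lay lowest in the ureters of mice 2 and 9, and their part in this result was not tested.

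Of 40 cytokine and chemokine genes, 4 were higher in the bladder (1 without mouse 4 or mouse 9 and 2 without mouse 1), among them Ptgs2, the inducible cyclooxygenase (-3.32 ± 0.79/-4.38 ± 0.98, FDR 0.0403/0.0481), and the neutrophil chemokines Cxcl5 (-3.44 ± 0.64/-3.77 ± 0.56, FDR 0.02/0.0134) and Cxcl3 (-3.25 ± 0.92/-3.04 ± 0.78, FDR 0.0703/0.0703). In mice 2, 7 and 9, 5 of 42 cytokine and chemokine genes were higher in the bladder and 1, Cxcl9 (named after its values were seen), in the ureter. Over all genes these shares were 4.32% and 6.06%. Of 40 interferon response genes, 7 were higher in the bladder in 6 mice and 1 in mice 2, 7 and 9, where 1 was higher in the ureter, and 0 were called in both sets. Isg15, a ubiquitin-like protein induced by interferon, was 23.1 to 294 CPM in the bladders and 5.64 to 28.2 CPM in the ureters (-3.47 ± 0.77, FDR 0.0318) and did not pass in mice 2, 7 and 9 (-1.98 ± 0.89, FDR 0.24). The 7 calls ranged from 1 without mouse 4 to 11 without mouse 7, with 4 without mouse 1 or mouse 3 and 2 without mouse 9. Of 31 p53 target genes 0 were called in 6 mice by edgeR, against 5 at an unadjusted p under 0.05 and 3 called by DESeq2, and 3 (Pmaip1, Perp and Ckap2, named after their values were seen) were higher in the bladder in mice 2, 7 and 9. Cdkn1a was 0.40 ± 0.54/-0.82 ± 0.38 (FDR 0.687/0.256). Of 17 retinoid genes, 1 was higher in the ureter and 3 in the bladder in 6 mice, where 5.59% and 4.00% of all genes were, and 2 and 6 in mice 2, 7 and 9. The 3 calls toward the bladder fell to 1 without mouse 1, 4, 7 or 9, and the call toward the ureter rose to 2 without mouse 1 or 3 and was lost without mouse 4 or 9. The 6 calls of mice 2, 7 and 9 fell to 2 without mouse 2 and to 1 without the block. Lrat, which stores vitamin A as esters, was higher in all 6 bladders without overlap (-3.45 ± 0.43/-3.05 ± 0.45, FDR 0.00908/0.0125), and the receptor gene Rxrg in all 6 ureters (2.82 ± 0.64/3.90 ± 0.50, FDR 0.0344/0.00752). Of 22 immediate early genes, Klf2 was higher in the ureter (1.45 ± 0.36/2.02 ± 0.36) and Fosl2 (-1.02 ± 0.30/-1.39 ± 0.36) and Ier3 (-1.49 ± 0.40/-1.39 ± 0.41) in the bladder in both sets of mice, while Fos and Jun did not pass (FDR 0.269/0.681 and 0.105/0.57). Without mouse 1, 0 immediate early genes were called. Leaving out 1 mouse ended the calls of Isg15 (mouse 4), Ptgs2 and Rxrg (mouse 4 or 9), Cxcl3 and Ier3 (mouse 1, 4 or 9), Klf2 (mouse 1, 7 or 9) and Fosl2 (mouse 1, 2, 4, 7 or 9).

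Every macrophage, endothelial and matrix gene called in the 6 mice was higher in the ureter. Cd163, a scavenger receptor of tissue macrophages, did not overlap (31.1 to 111 CPM with a median of 49.6 in the ureters and 3.25 to 18.4 CPM with a median of 13.7 in the bladders, 2.28 ± 0.38/2.85 ± 0.38, FDR 0.0146/0.00873), and Csf1r was higher in all 6 ureters (1.56 ± 0.31/1.32 ± 0.38, FDR 0.0243/0.0885). Of 19 macrophage markers 4 were higher in the ureter, where 5.59% of all genes were, 2 without mouse 2, 4, 7 or 9, and 7 in mice 2, 7 and 9. Of 22 endothelial markers 9 were higher in the ureter and 0 in the bladder, among them Esam (1.92 ± 0.34/1.45 ± 0.36) and Pecam1 (2.29 ± 0.56/1.07 ± 0.40), while 5 passed in mice 2, 7 and 9, Pecam1 not among them (FDR 0.165). The endothelial count fell to 3 without mouse 1 or mouse 9, 2 without mouse 4, 4 without mouse 7 and 5 with thinned libraries, and Pecam1 lost its call without mouse 4. Postn, a matrix protein, was 151 to 212 CPM with a median of 163 in the ureters and 35.1 to 60.8 CPM with a median of 49.3 in the bladders (1.60 ± 0.34/1.88 ± 0.42, FDR 0.0297/0.0487), and Mmp3 (2.50 ± 0.45/3.13 ± 0.56) and Lox (1.89 ± 0.40/2.47 ± 0.50) followed, as 3 of the 6 matrix genes of 38 called higher in the ureter. Without mouse 1, 4 or 9, 3 matrix genes were called, Postn not among them without mouse 9, and in mice 2, 7 and 9, 6 were higher in the ureter and 1, Mmp13 (named after its values were seen), in the bladder. The summed white fat markers were 11020 to 93920 CPM in these ureters and 326.6 to 9000 CPM in these bladders, and their part in the macrophage, endothelial and matrix results was not tested. The red cell gene Alas2 was also higher in the ureter (3.02 ± 0.56/3.23 ± 0.60, FDR 0.0198/0.0278), reaching 272 CPM in mouse 2. No T cell, B cell or kidney marker was called in 6 mice, of 18, 11 and 5 tested, with 1, 2 and 1 at an unadjusted p under 0.05 and 1, 3 and 2 called by DESeq2, all higher in the bladder. In mice 2, 7 and 9, 1 of 19 T cell markers (Nkg7, named after its values were seen) was higher in the ureter, where 6.06% of all genes were. No B cell or kidney marker was called there. The T cell median moved from -0.3 in 6 mice to 0.715 in mice 2, 7 and 9, and the B cell median from -0.513 to 0.024. The neutrophil list had 1 of 11 markers higher in each tissue, the mesothelium list 2 of 12 in each, and the mast cell list (11 tested) and the nerve list (16 tested) 1 each higher in the bladder. Of all genes, 5.59% were higher in the ureter and 4.00% in the bladder. In mice 2, 7 and 9 the neutrophil and mast cell counts were the same. There 1 of 12 mesothelium markers was higher in the ureter and 3 in the bladder, and 2 of 19 nerve markers were higher in the bladder. Of 9 skeletal muscle genes 4 were higher in the bladder, where 4.00% of all genes were. Among them were Acta1 (11.8 to 51.4 CPM with a median of 27.2 against 0.902 to 4.53 CPM with a median of 1.7) and Ckm. In mice 2, 7 and 9, 2 of 10 were higher in the bladder and 1, Myl1 (named after its values were seen), in the ureter. Pgr, the progesterone receptor, was higher in the bladder of all 6 mice (-3.74 ± 0.76/-2.49 ± 0.71, FDR 0.0254/0.0874). Its log2 fold change was 0.22 with 7 ureters against 6 bladders with a RIN of 5 or more.

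Whether these differences belonged to BBN-treated animals was tested as an interaction of tissue and treatment over 21 libraries of 9 mice. The log2 value of ureter minus bladder was larger in BBN mice than in untreated mice for 680 of 18281 genes (3.72%) and smaller for 510 (2.79%). A larger value can be a gain in the ureter or a smaller excess in the bladder: the value of P2rx1 was -3.87 in untreated mice, with more in the bladder in both treatments. With both ureters of an untreated mouse summed to 1 library, these counts fell to 50 and 32, and of the 33 genes given here that passed, Crnn (FDR 0.0437) and Aqp4 (FDR 0.0734) still did. Without mice 1, 3 and 4, 24 of the 33 passed, and without the block 20, with Aqp4 among them (FDR 0.0214) and Crnn not (FDR 0.22). By list, the value was larger in BBN mice for 16 of 38 matrix genes and smaller for 1, and 16 of the 38 were higher in the untreated bladder. It was larger for 14 of 64 genes of carcinogen and drug metabolism and smaller for 1, with 19 higher in the untreated bladder and 15 in the untreated ureter. It was smaller for 11 of 40 interferon response genes, 8 of 40 cell cycle genes and 6 of 28 squamous and suprabasal genes, and larger for 0 of each. Of these lists, in order, 1, 3 and 6 genes were higher in the untreated bladder and 7, 0 and 2 in the untreated ureter, where 9.75% and 9.87% of all genes were. Interaction counts by list, here and below, were made for the fit of 21 libraries alone, not without mice 1, 3 and 4 or with the ureters summed. The BBN libraries are those of the paired comparison, so the interaction is no independent evidence of a difference within BBN mice.

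Crnn, a cornified cell protein, was 0 to 0.235 CPM in untreated ureters and 0.0562 to 0.156 CPM in untreated bladders, against 0 to 8.4 CPM with a median of 0.0979 in the ureters and 1.06 to 618 CPM with a median of 10.3 in the bladders of BBN mice (interaction -6.73 ± 1.04, FDR 0.0032, and 0.00356 without mice 1, 3 and 4). Aqp4 was 0.144 to 1.39 CPM in untreated ureters and 0.235 to 0.469 CPM in untreated bladders and 10.2 to 76.1 CPM with a median of 39.8 in BBN bladders (interaction -4.41 ± 0.81, FDR 0.00996, and 0.0154 without mice 1, 3 and 4). Both genes were thus near 0 in both untreated tissues and had their highest median in BBN bladders. Cnfn (-7.64 ± 1.86, FDR 0.0379), Csta1 (-6.99 ± 1.47, FDR 0.0187), Lgals7 (-4.17 ± 1.17, FDR 0.0659) and Irf7 (-3.12 ± 0.59, FDR 0.0112) also had smaller values in BBN mice and also passed without mice 1, 3 and 4, but not with the ureters summed (FDR 0.158, 0.108, 0.238 and 0.121). Without the block, Csta1 (FDR 0.0406) and Irf7 (FDR 0.00421) passed, and Cnfn (FDR 0.269) and Lgals7 (FDR 0.114) did not.

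The uroplakins moved differently. In untreated mice 5 of 6 uroplakins and 15 of 20 luminal genes were higher in the bladder, where 9.75% of all genes were. The interaction itself passed for 3 of 6 uroplakins and 2 of 20 luminal genes. Upk2 was 934 to 1020 CPM with a median of 956 in the bladders and 64.5 to 124 CPM with a median of 103 in the ureters of untreated mice (log2 fold change -3.22, FDR 0.00606), and in BBN mice 10.6 to 70.3 CPM with a median of 21.6 in the bladders and 0.325 to 93.9 CPM with a median of 47 in the ureters. The median of the bladders was thus the highest of the 4 groups in untreated mice and the lowest in BBN mice. The interaction was 3.80 ± 1.03 for Upk2 (FDR 0.0584) and 3.44 ± 1.02 for Upk3a (FDR 0.0786), but neither passed without mice 1, 3 and 4 (FDR 0.355 and 0.399) or with the ureters summed (FDR 0.282 and 0.319). Adh1 was 1178 to 1230 CPM in the bladders and 333 to 460.0 CPM in the ureters of untreated mice, and 172 to 543 CPM in the ureters and 52.9 to 208 CPM in the bladders of BBN mice, where the tissues did not pass. Its interaction was 2.76 ± 0.41 (FDR 0.00261) and did not pass with the ureters summed (FDR 0.105).

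White fat genes and the patterning genes Tbx20 and Tbx18 showed their tissue difference in untreated mice too. All 20 white adipocyte markers were higher in the untreated ureter (9.87% of genes were), with log2 fold changes of 7.55 for Cidec and 7.54 for Adipoq, and neither gene's interaction passed. Tbx20 was 10.2 to 15.1 CPM in untreated bladders and 0 to 0.313 CPM in untreated ureters (FDR 6.61e-05), and Tbx18 was higher in the untreated ureter (2.98, FDR 0.00328). Of 54 patterning factors tested for the interaction, 3 had larger and 5 smaller values of ureter minus bladder in BBN mice, where 3.72% and 2.79% of all genes did.

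**Figure D4:**
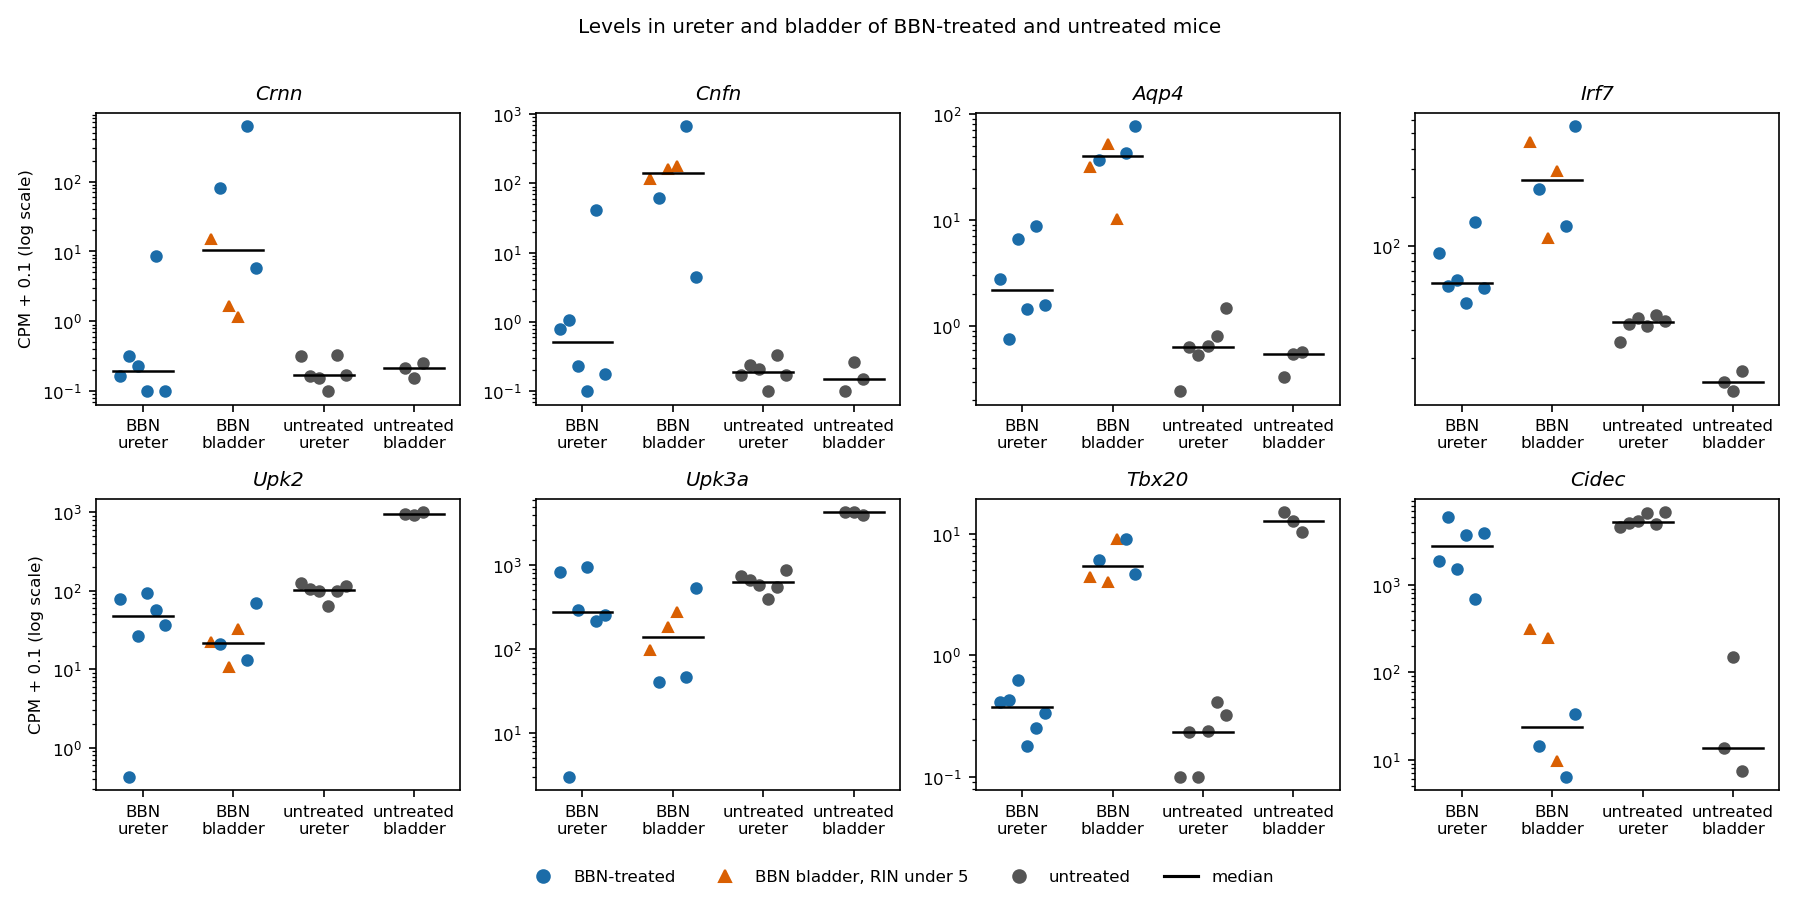
Level of 8 genes (CPM + 0.1, log scale, scaled over 21 libraries) in BBN ureters, BBN bladders, untreated ureters and untreated bladders, with each library as a point, bladders with a RIN under 5 as triangles and the group median as a line. Crnn, Cnfn and Aqp4 had their highest median in BBN bladders, Upk2 and Upk3a were highest in untreated bladders, and Tbx20 and Cidec kept the same order of tissues with and without BBN.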

How the data were processed

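Total RNA was extracted with the miRNeasy Mini Kit, and libraries were made with the SMARTer HT and Nextera XT kits. The authors deposited estimated counts per gene symbol (24421 symbols in 37 columns), of which 21.1% of the values above 0 were fractional; per the labels, TopHat2 2.1.1, Cuffdiff 2.2.1 and GRCm38 (mm10) were used, and the step that made the estimated counts is not given in the sources used here. Counting by strand is not stated, so overlapping and antisense genes cannot be told apart, and copies of gene families may share reads.

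Counts were rounded, filtered with filterByExpr, scaled by TMM and tested in edgeR 4.0.16 (R 4.3.3) with a quasi-likelihood fit and mouse as a block; calls needed a Benjamini-Hochberg FDR under 0.1 and a fold of at least 2. The pairing rests on ureter and bladder coming from the same mouse. Same-mouse deviations correlated at -0.198 to 0.434 with a median of -0.0561. The median was 0.00928 for ureter and bladder of different mice, so same-mouse libraries were no more alike by this measure. P-values of the paired comparison measure the spread between these mice. In the interaction fit both ureters of an untreated mouse entered as separate libraries, so its p-values also measure the spread between sides. The results within untreated mice are from that fit alone. The members and gene lists were chosen with earlier results of these data known. Named genes were, per direction, the 12 with the largest fold changes among genes called in both sets of mice with the same sign in all 6 mice and at least 10 CPM in the higher tissue, the first 2 genes of each list, and up to 4 members of each list called in both sets; lists in which few members were called are given by counts. The result of 1 gene is not reported here. Fitted folds of genes near 0 in 1 tissue depend on the prior count. The method was tested on simulated data. Alternatives (no block, DESeq2 1.42.0, limma 3.58.1, other filters and scalings, thinning, and leaving out each mouse) are given in the closing section. No 2 libraries of a tissue were alike within counting noise (smallest chi-square per degree of freedom 28.7).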

Additional observations from a re-analysis of the deposited data

Results flagged for a closer look

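Of 250 sets of 6 libraries tested, 29 had a library that stood apart from the other 5 by Dixon's test, where chance gives about 1 in 20. Of these, 11 were high values in the ureter of mouse 7, at 41.5 CPM for Cnfn, 8.49 for Crnn, 2.16 for Calm4, 2.88 for Crct1, 30.1 for Sprr3, 2.88 for Defb14, 28.2 for Krtdap, 10.8 for Sprr1b, 4.12 for Krt1, 10.3 for Lgals7 and 1.18 for Hoxd13. In the same ureter Cldn5 was low at 6.38 CPM and Cyp2e1 at 1070 CPM. The ureter of mouse 2 was low for Upk2 (0.338 CPM), Upk3a (3.04 CPM), Upk1b (4.62 CPM), Krt20 (0.225 CPM), Aqp3 (0.902 CPM) and Pigr (2.25 CPM), and Hand2 was 0.113 CPM there and 0 in the other ureters. The ureter of mouse 9 was high for Cdh5 at 35.4 CPM. Among the bladders, mouse 1 was high for Elovl3 (7.44 CPM), Thrsp (230 CPM) and Cidea (53 CPM), mouse 3 was high for Mc5r (1.18 CPM) and low for Pparg (7.49 CPM), mouse 9 was low for Slurp1 (2.56 CPM) and was high for Mx1 (66.6 CPM), and mouse 7 was low for Klf2 (6.23 CPM).

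Among the genes given here, the tissue difference of 33 differed between BBN and untreated mice. The test was of the difference itself, in edgeR's quasi-likelihood test with FDR under 0.1. With both ureters of an untreated mouse summed, 2 of the 33 (Crnn and Aqp4) still passed. Without mice 1, 3 and 4, 24 of the 33 passed and Sprr3, Sprr2j-ps, Dmkn, Upk2, Upk3a, P2rx1, Hmmr, Isg15 and Fos did not. Without the block, 20 passed and 13 did not, Crnn among them (FDR 0.22). The log2 value of ureter minus bladder was larger in BBN mice by 3.95 for Mc5r, 1.44 for Pparg, 3.80 for Upk2, 3.44 for Upk3a, 1.72 for P2rx1, 2.76 for Adh1, 2.2 for Cdkn1a, 2.39 for Fos, 1.42 for Fosl2, 1.72 for Cd163 and 1.55 for Csf1r. P2rx1 and Fosl2 were higher in the bladder in both treatments, by less in BBN mice. In the other direction, the interaction was -7.64 for Cnfn, -6.73 for Crnn, -7.37 for Calm4, -5.39 for Sprr3, -6.99 for Csta1, -8.86 for Sprr2j-ps, -4.17 for Lgals7 and -2.29 for Dmkn. It was -4.41 for Aqp4, -2.51 for Lrat, -4.33 for Ltf, -2.96 for Clca1, -7.04 for Cxcl3 and -3.44 for Pgr. The cell cycle genes had -1.75 for Mki67, -2.81 for Birc5, -2.98 for Hmmr, -2.22 for Kif11 and -2.59 for Cenpe, and the interferon genes -4.06 for Isg15, -3.12 for Irf7 and -3.18 for Mx1. Values of genes near 0 in a group depend on the prior count.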

How the results depend on the processing

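Counts of genes are given as higher in the ureter and higher in the bladder, from 841 and 601 in 6 mice. Without the replicate block on mouse they were 1101 and 1584, with DESeq2 1375 and 1964, with no filter on low counts 1131 and 1112, and with 7 UN ureters against the 6 bladders of the series with a RIN of 5 or more 2326 and 1032. Leaving out 1 mouse gave 212 to 909 and 162 to 791. In mice 2, 7 and 9, from 921 and 657, the counts were 399 and 39 without the block, 1618 and 1442 with DESeq2, and 213 to 1484 and 89 to 1591 with 1 mouse left out. For the interaction, from 680 and 510, summing both ureters of an untreated mouse gave 50 and 32, and dropping the block 848 and 1486. The other settings (limma, RLE scaling, a filter at 1 CPM, a robust fit, thinning and a RIN coefficient) were run for the 6 mice alone and kept their counts over all genes within 1.5 times. The genes behind these counts changed more. Of the 1442 genes called in 6 mice, 55.3% kept their call with the RIN coefficient, 73.9% with thinning and 76.5% with limma-voom. The share was 91.4% or more with the rest of these settings. The cause of these shifts was not tested. The block in mice 2, 7 and 9 leaves 2 residual degrees of freedom, and the low depth of the bladders with a RIN under 5 limits the genes near 0.

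With 1 mouse left out, the log2 fold change ranged from -0.07 to 1.02 for Upk2, -0.89 to 0.22 for Upk1b, -0.85 to 0.52 for Krt20, -1.24 to 0.16 for Myh11 and -1.14 to 0.63 for Aqp3. Values of 9 genes changed sign, of which 8 had not passed. In mice 2, 7 and 9 the log2 fold change was -0.99 for Upk2, -0.82 for Upk3a and -0.82 for Cdkn1a, and with a RIN coefficient -0.97, -0.81 and -0.79. Upk2 was -0.07 to -0.08 with limma-trend (-0.075), limma-voom (-0.075) and without mouse 7 (-0.071). With 7 UN against 6 bladders, Upk1a was 0.47, Cdkn1a -0.33 and Pgr, which had passed, 0.22. Without mouse 2, Upk1b was 0.22, Krt20 0.52, Myh11 0.16 and Aqp3 0.63. Krt20 was 0.38 without the block, 0.004 without a filter and 0.06 without mouse 7. Myh11 was 0.25 without the block and 0.02 without mouse 3, and Aqp3 was 0.14 without mouse 7 and 0.39 without mouse 9. The cause was not tested.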

Other observations

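The interferon-induced genes Oas1a (chr5:120896256-120907521, GRCm38) and Oas1g (chr5:120876142-120887613), which encode oligoadenylate synthetases, divided the mice, a pattern noticed after the values were seen. In mice 1, 2 and 9, Oas1a was 16.7 to 38.8 CPM in the ureters and 69.2 to 202.6 CPM in the bladders. In mice 3, 4 and 7 it was 0 to 0.403 CPM in the ureters and 0 to 0.346 CPM in the bladders. Oas1g was 7.9 to 17.9 CPM in the ureters and 36.8 to 107.6 CPM in the bladders of mice 1, 2 and 9, and at most 0.0806 and 0.789 CPM in those of mice 3, 4 and 7. In mice 1, 2 and 9 both genes were higher in each bladder than in the ureter of the same mouse. These were the only 2 genes of the table at 5 CPM or more in both tissues of mice 1, 2 and 9 and under 0.5 CPM in the ureter and 1 CPM in the bladder of mice 3, 4 and 7. Tumor-bearing ureters of the same mice followed them, with 46.5 to 374.4 CPM of Oas1a in mice 1, 2 and 9 and 0 to 0.389 CPM in mice 3, 4 and 7. Isg15, another interferon-induced gene, was detected in every library of all 6 mice, at 5.64 to 28.2 CPM in the ureters and 23.1 to 294 CPM in the bladders. The Oas1 copies are near-identical, so the split of reads between them is uncertain.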
